A study of Mus musculus with 16 samples.

Results

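The 10 genes described here encode the D-type cyclins *Ccnd1*, *Ccnd2* and *Ccnd3*, the E-type cyclins *Ccne1* and *Ccne2*, their partner kinases *Cdk4*, *Cdk6* and *Cdk2*, the kinase inhibitor *Cdkn1b*, and the inhibitor locus *Cdkn2a*. They were chosen by name, with earlier results of these data known. Each was found by its symbol among the 53354 genes of the TPM table and by the same Ensembl identifier among the 54393 genes of the count table, and all 10 were among the 13234 genes tested. The cells were mIMCD3, an epithelial line made from the kidney inner medulla of an SV40-transgenic animal and named for the collecting duct there, and the labels give their genotype as wild type. All libraries came from this 1 line. Cells were grown on permeable filters for 10 days in a medium with serum, insulin and EGF. The vehicle DMSO or doxycycline (DOX, a tetracycline antibiotic used to switch on engineered genes) at 2 µg/mL was then given on both sides of the filter and renewed daily for 3 or 6 days. This gave 4 groups of 4 libraries of polyadenylated RNA: DMSO for 3 days, DOX for 3 days, DMSO for 6 days and DOX for 6 days. The labels number the replicates but do not say whether they were separate cultures, so p-values measure the spread between these libraries, which may be technical.

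These genes run the passage from the G1 phase of the cell cycle to DNA synthesis. D-type cyclins are made in response to growth factors such as EGF, bind CDK4 or CDK6, and start the phosphorylation of the retinoblastoma protein, which holds back E2F transcription factors. E-type cyclins, themselves E2F targets, bind CDK2 and complete this step. The protein p27, from *Cdkn1b*, binds cyclin-CDK complexes and restrains CDK2, while *Cdkn2a* encodes p16INK4a, which blocks CDK4 and CDK6, and, from another promoter and reading frame, p19ARF, which stabilizes p53. SV40 large T antigen binds both the retinoblastoma protein and p53, and cells that carry it commonly express *Cdkn2a* without stopping. The T antigen itself was not analysed here.

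Total estimated counts ran from 16933343 to 23960860 per library, and 3 counts, taken as the floor of detection, came to between 0.125 and 0.177 CPM (the read count scaled to a common library size by TMM). This floor covers counting error only. Replicates of a group correlated at 0.9811 to 0.9924 over tested genes. Replicate 1 of DMSO at 6 days had the lowest mean correlation with its own group, 0.9814, and the lowest share of mitochondrial transcripts, 1.29%, and it held the highest *Cdk4* and *Cdkn2a* CPM and the lowest *Cdk6* CPM of its group. Replicate 1 of DOX at 3 days had a TMM scaling factor of 1.002, against 0.9503 to 0.9547 in the others of its group. It held the lowest *Ccnd1*, *Ccnd2*, *Ccne1*, *Ccne2*, *Cdk2*, *Cdk4*, *Cdk6* and *Cdkn2a* CPM and the highest *Cdkn1b* CPM of that group. The 7 epithelial markers, such as *Krt8* and *Epcam*, were all expressed, with a summed level of 2160 to 2630 TPM (a share of transcripts, which accounts for length) in DMSO-treated and 1600 to 1860 TPM in DOX-treated libraries. Of the 7 collecting duct markers, 5 averaged under 1 TPM in both DMSO groups, among them the vasopressin-regulated water channel *Aqp2* (0 to 0.391 TPM in the 16 libraries). The 6 mesenchymal markers summed to 0.895 to 3.23 TPM and the 3 endothelial markers to 0.449 to 1.13 TPM. Of the 3 leukocyte markers, *Cd68* reached 24.4 TPM and *Ptprc* and *Adgre1* did not pass 0.381 and 0.02 TPM. By the test described below, 2 epithelial markers fell with DOX at 3 days and 4 at 6 days, 1 and then both of the 2 tested collecting duct markers fell, *Cd68* fell at both times, and the tested mesenchymal and endothelial markers (1 and 2) were not called. By the same test 7.22% of all tested genes fell at 3 days and 11.6% at 6 days. Mitochondrial transcripts took 1.29% to 1.78% of the counts with DMSO, 1.68% to 1.83% with DOX for 3 days and 2.2% to 2.51% with DOX for 6 days. The part of these shifts in the results below was not tested. In cultures measured in bulk, fewer cells of a type, such as cycling cells, and less RNA per cell cannot be told apart.

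In cells given DMSO, *Cdk4* was the most abundant of the 10, at 536 ± 66 TPM (SD, n = 8 libraries of both times). *Cdkn2a* followed at 191 ± 21.6 TPM, below *Cdk4* in 8 of 8 libraries. *Ccnd1* (66.3 ± 5.14 TPM) and *Ccnd3* (60.5 ± 3.53 TPM) came next, and their ranges overlapped, with *Ccnd1* higher in 7 of 8 libraries. *Cdk2*, the partner of the E-type cyclins, stood at 40.1 ± 3.72 TPM. *Cdkn1b* (31.8 ± 2.02 TPM) and *Cdk6* (29.4 ± 2.64 TPM) also overlapped, with *Cdkn1b* higher in 7 of 8 libraries. *Ccne2* (16.8 ± 1.38 TPM) and *Ccne1* (15.6 ± 1.66 TPM) overlapped likewise, with *Ccne2* higher in 7 of 8 libraries. *Ccnd2* was nearly silent, at 0.226 ± 0.341 TPM.

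**Figure D1:**
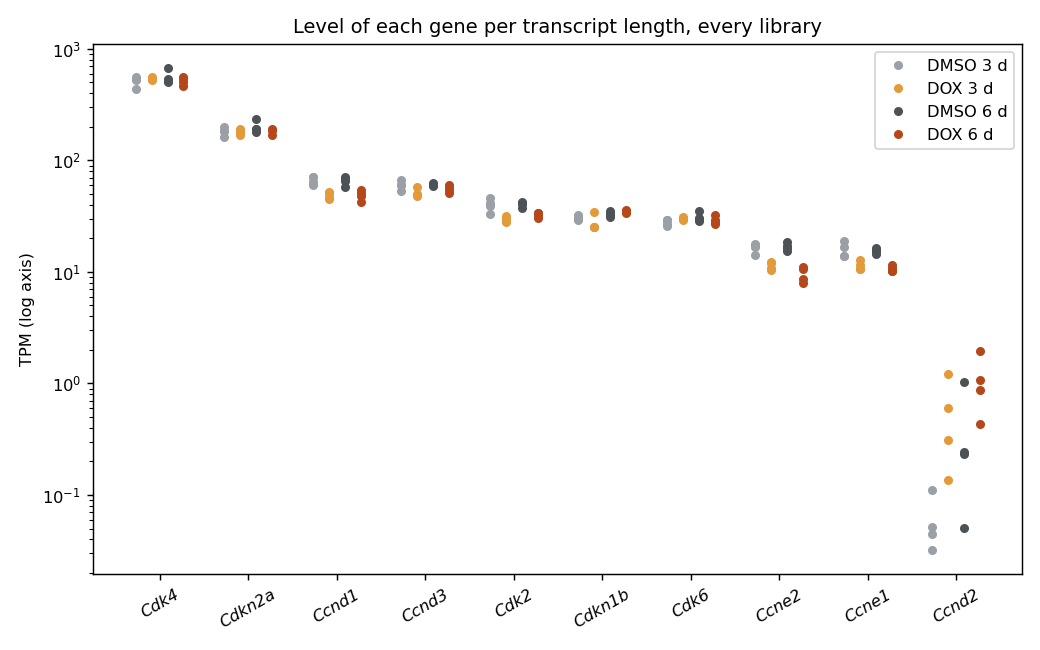
TPM of each gene (log axis) in each of the 16 libraries, 1 point per library, coloured by group and ordered by the mean of the DMSO libraries. *Cdk4* lies highest, at 439 to 673 TPM with DMSO, *Ccnd2* lies lowest, at 0.032 to 1.04 TPM, and the 16 points of *Ccnd2* are the most scattered.

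*Cdk4* made up 94.8% ± 0.416 (SD, n = 4) of the summed TPM of *Cdk4* and *Cdk6* with DMSO for 3 days, and 94.7% ± 0.206, 94.7% ± 0.306 and 94.6% ± 0.279 with DOX for 3 days, DMSO for 6 days and DOX for 6 days. These shares differed by less than the spread of the libraries. *Ccnd1* made up 52.5% ± 1.32 (51.5% to 54.3%) of the D-type cyclins with DMSO for 3 days and 48.5% ± 2.81 (44.7% to 51.3%) with DOX. At 6 days its share was 48.3% to 54.7% with DMSO and 45% to 47% with DOX. The ranges did not overlap at either time, by a narrow margin at 3 days.

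DOX was compared with DMSO at each time by asking, gene by gene, whether a change exceeded 20% in size (edgeR's glmTreat, two-sided, Benjamini-Hochberg adjustment over all tested genes, limit 0.05). Genes past this limit are referred to as called. At 3 days 1 of the 10 genes was called, *Ccnd2*, which was higher. Of all tested genes 12.5% were called at 3 days, 5.3% of all tested genes being higher and 7.22% lower. At 6 days 2 were called, *Ccnd2* higher and *Ccne2* lower, where 21.6% of all genes were called, 10% higher and 11.6% lower. The members' counts lay near these background shares. *Ccnd2* reached 1 CPM in only 8 libraries and entered the test mainly through DOX libraries. With 1 CPM required in all 16 libraries it left the test, and 0 members were called at 3 days and 1 at 6 days. The median log2 fold change of the 10 was -0.056 at 3 days and -0.097 at 6 days, against 0.003 and -0.001 for all tested genes. The CPM of all 4 DOX libraries lay on 1 side of all 4 DMSO libraries for 8 of the 10 genes at 3 days (3 above, 5 below), against 38.6% of all genes, and for 6 at 6 days (2 above, 4 below), against 43%. Some of these genes overlapped in TPM: *Ccnd3*, *Cdk4* and *Cdkn2a* at 3 days, and *Ccnd2* and *Cdkn1b* at 6 days. The share of all genes apart in TPM was not computed. Asked without the 20% threshold, 6 of 10 genes differed from no change at 3 days (2 higher, 4 lower) and 7 at 6 days (2 higher, 5 lower), where 45.2% and 50.6% of all genes did.

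**Figure D2:**
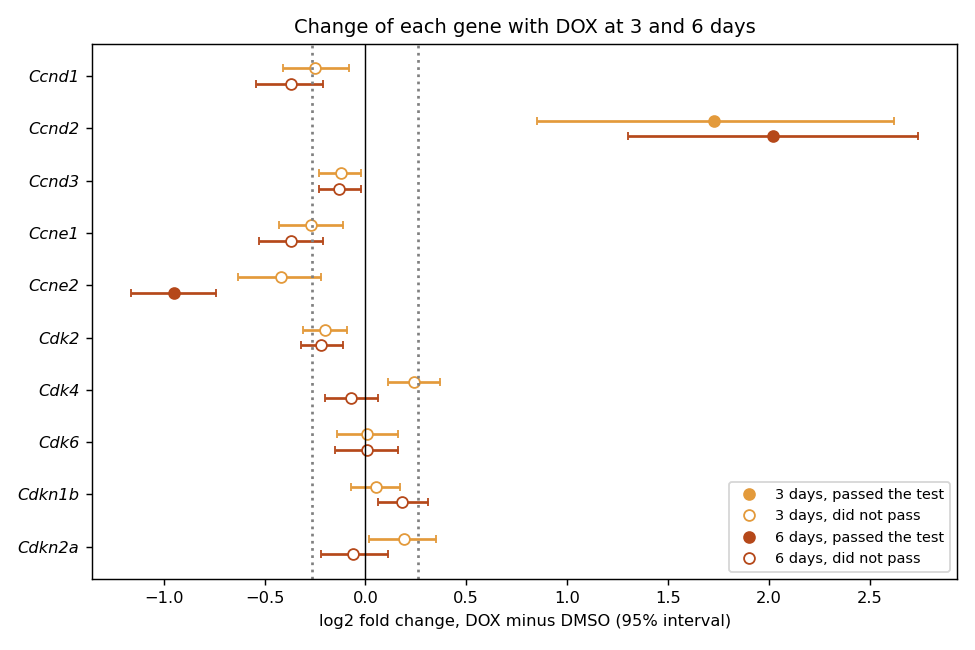
Log2 fold change of each gene, DOX minus DMSO, at 3 days (orange) and 6 days (red-brown), with 95% intervals from the edgeR fit. Filled points passed the test against a 20% change, whose limits are the dotted lines. *Ccnd2* lies far to the right at both times with the widest intervals, *Ccne2* moves from -0.42 to -0.95, and the other 8 genes stay between -0.37 and 0.24.

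Among the D-type cyclins, *Ccnd1*, the cyclin most directly tied to growth factor signalling, had lower values with DOX at both times, without passing the 20% test. At 3 days it measured 207, 222, 195 and 198 CPM with DMSO and 147, 194, 166 and 187 CPM with DOX. At 6 days it measured 173, 220, 190 and 203 CPM with DMSO and 143, 148, 153 and 164 CPM with DOX. The highest DOX library thus stayed below the lowest DMSO library at each time, by a narrow margin at 3 days. The log2 fold change was -0.25 at 3 days (SE 0.0808, adjusted p = 0.756) and -0.37 at 6 days (SE 0.0809, adjusted p = 0.113). Without replicate 1 of DMSO at 6 days, the lowest of its group, the value at 6 days was -0.43 and was called (adjusted p = 0.0323). Leaving out any other library gave no call, and without replicate 2 of DMSO at 6 days the value was -0.31. At 3 days the value was -0.17 without replicate 1 of DOX, the lowest of its group, and -0.31 without replicate 2 of DOX. *Ccnd3*, the D-type cyclin best known from lymphocytes, had log2 fold changes of -0.12 (95% interval -0.23 to -0.02) at 3 days and -0.13 (-0.23 to -0.02) at 6 days, and was not called. Its 16 libraries ran from 78.5 to 95.3 CPM. *Ccnd1* (chromosome 7, 144929931 to 144939925, minus strand, GRCm38) shares 1100 of its 4709 exonic bases with the opposite-strand gene *LTO1*, and *Ccnd3* (chromosome 17, 47505051 to 47599691, plus strand) has a processed pseudogene, *Ccnd3-ps*, on chromosome 4. Whether counting used strand is not given in the sources used here.

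*Ccnd2*, a D-type cyclin of many proliferating cells that is often silent in epithelial lines, was called higher at both times from very few reads. With DMSO for 3 days it had 11, 6, 3 and 6 counts, and with DOX 15, 22, 24 and 23. With DMSO for 6 days it had 6, 29, 12 and 5 counts, and with DOX 49, 66, 68 and 50. The groups did not overlap at either time, and the nearest pair at 6 days was 29 against 49 counts. In CPM the means were 0.339 ± 0.227 against 1.1 ± 0.25 at 3 days and 0.646 ± 0.489 against 2.71 ± 0.351 at 6 days (SD, n = 4). The fold change was 3.32 (95% interval 1.8 to 6.13, log2 1.73, SE 0.425, adjusted p = 0.00964) at 3 days and 4.06 (2.46 to 6.69, log2 2.02, SE 0.346, adjusted p = 0.000189) at 6 days. Without replicate 2 of DMSO at 6 days, the library with 29 counts, the log2 fold change at 6 days was 2.69. *Ccnd2* reached 1 CPM in only 8 libraries, all but 1 of them given DOX, so it entered the test mainly through the group in which it was higher.

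The TPM of *Ccnd2* did not follow its counts. With DMSO it was 0.11, 0.045, 0.032 and 0.052 TPM at 3 days and 1.04, 0.241, 0.233 and 0.051 TPM at 6 days. With DOX it was 0.136, 0.312, 0.598 and 1.21 TPM at 3 days and 0.429, 1.07, 1.97 and 0.882 TPM at 6 days. The groups were apart at 3 days and overlapped at 6 days, where replicate 1 of DMSO held 6 counts but 1.04 TPM. The transcript length implied by the ratio of count to TPM differed 16.4-fold between libraries for *Ccnd2*, against 1.04-fold to 1.8-fold for the other 9 genes. The annotation lists 8 *Ccnd2* transcripts of 115 to 6330 bases (chromosome 6, 127125162 to 127152193, minus strand), and the opposite-strand genes *9330179D12Rik* and *Gm43126* share 368 and 372 of its 9409 exonic bases. On log2(TPM + 1), tested with limma, the differences were 0.52 (adjusted p = 0.703) at 3 days and 0.58 (adjusted p = 0.492) at 6 days, a scale that understates changes of low genes. With the implied lengths as an offset in edgeR, the log2 fold changes were 3.15 (adjusted p = 0.0159) and 2.33 (adjusted p = 0.0334).

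**Figure D3:**
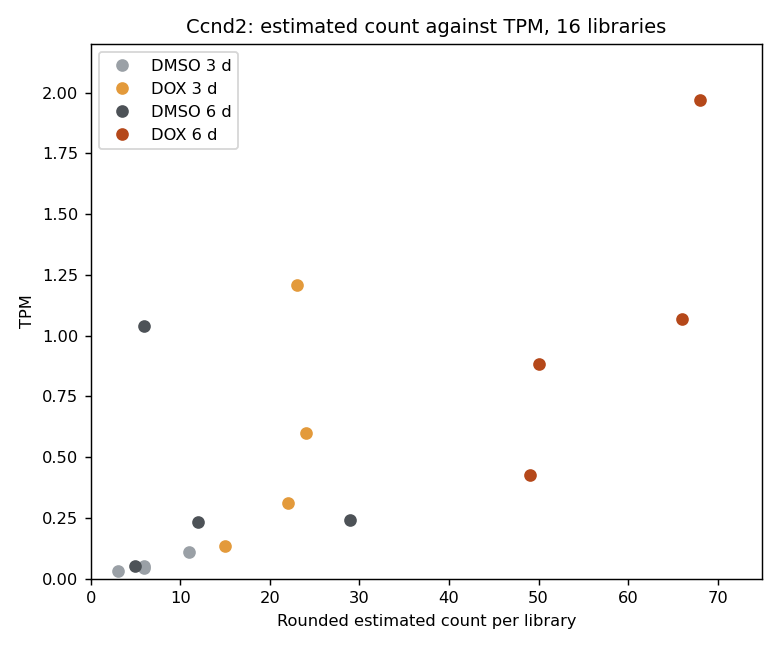
Rounded estimated count of *Ccnd2* (horizontal axis) against its TPM (vertical axis), 1 point per library, coloured by group. The 4 libraries of DOX for 6 days lie at 49 to 68 counts, right of all others, but on the vertical axis a DMSO library with 6 counts reaches 1.04 TPM.

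Of the E-type cyclins, *Ccne2* fell at 6 days, the only member call that held on both the count and the TPM scale. With DMSO for 3 days it measured 34.8, 30.9, 33.1 and 26.5 CPM, and with DOX 19.8, 24.8, 23.9 and 24.5 CPM. With DMSO for 6 days it measured 29.2, 37.1, 36.1 and 37.6 CPM, and with DOX 20.9, 17.6, 16.1 and 17.8 CPM. The groups did not overlap at either time, and the gap was wider at 6 days. *Ccne2* fell by 0.95 on the log2 scale at 6 days (SE 0.1, adjusted p = 2.13e-06), to 0.517-fold (95% interval 0.447 to 0.597), or by 1.03 without replicate 1 of DMSO. This call was kept in the fit of TPM by limma (-0.77, adjusted p = 0.0017) and with every library left out in turn. At 3 days its log2 fold change was -0.42 (SE 0.0994, adjusted p = 0.106), and it was called (-0.50, adjusted p = 0.0327) on leaving out replicate 4 of DMSO, the lowest of that group, and no other library. Without replicate 1 of DOX at 3 days, the lowest of its group, the value was -0.35. *Ccne2* (chromosome 4, 11191351 to 11204779, plus strand) shares 609 of its 3495 exonic bases with the opposite-strand gene *Ints8*.

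*Ccne1*, the E-type cyclin more often amplified in tumours, also had lower values with DOX, without being called. It measured 23.7, 22.3, 25.4 and 24.2 CPM with DMSO and 17.2, 19.9, 21.3 and 20.8 CPM with DOX at 3 days. At 6 days the values were 22, 22.7, 20.5 and 22.4 CPM with DMSO and 18.1, 18.2, 16 and 15.4 CPM with DOX. Every DOX library lay below every DMSO library of its time. The log2 fold change was -0.27 at 3 days (SE 0.0765, adjusted p = 0.604) and -0.37 at 6 days (SE 0.0773, adjusted p = 0.105). The value at 3 days was -0.21 without replicate 1 of DOX, the lowest of its group, and -0.31 without replicate 2 of DMSO. The summed level of both E-type cyclins was 32.4 ± 1.41 TPM with DMSO and 22.8 ± 1.53 TPM with DOX at 3 days, and 32.3 ± 2.14 against 20.3 ± 1.06 TPM at 6 days (SD, n = 4), with no overlap. *Ccne1* contributed 48.6% ± 5.88, 50.1% ± 2.4, 47.7% ± 0.828 and 53% ± 5.3 of it with DMSO and DOX for 3 days and DMSO and DOX for 6 days. The median of all genes on log2(TPM + 1) shifted by -0.149 at 3 days and -0.055 at 6 days. The log2 ratios of mean TPM for *Ccne1* were -0.47 and -0.52, both lower than by counts. Those for *Ccne2* were -0.55 and -0.82, against -0.42 and -0.95 by counts. *Ccne1* lies on chromosome 7 (38097984 to 38107534, minus strand) and overlaps no other annotated gene.

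**Figure D4:**
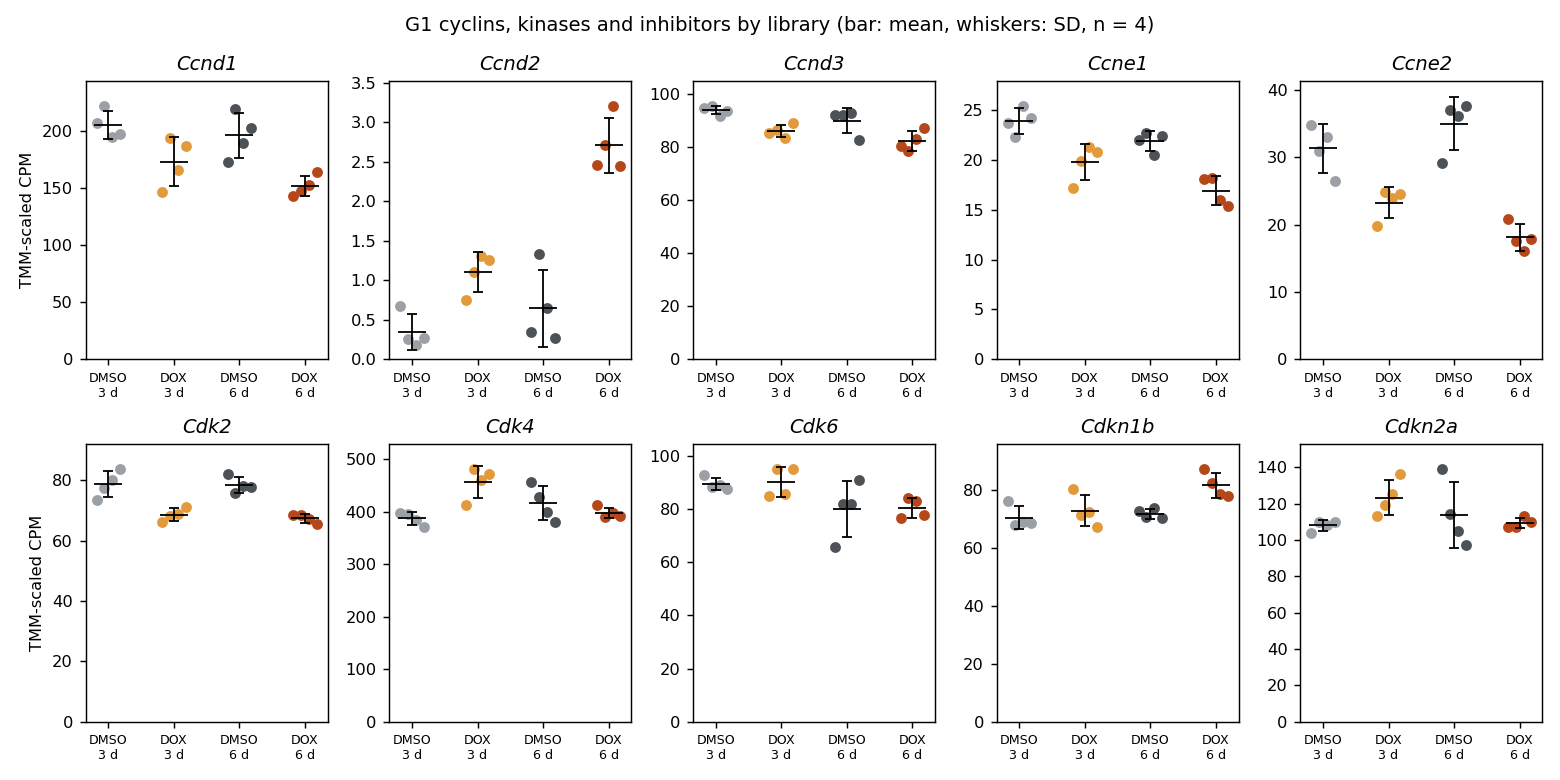
TMM-scaled CPM of each gene in each library (points, 4 per group), with the group mean (bar) and SD (whiskers), each panel from 0 on its own scale. The DOX points of *Ccne2* at 6 days (16.1 to 20.9 CPM) lie far below those of DMSO (29.2 to 37.6 CPM), those of *Ccnd2* lie above, and *Cdk6* and *Cdkn2a* overlap at 6 days.

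None of the kinases was called at either time. *Cdk2* measured 73.6, 77.3, 80 and 83.7 CPM with DMSO and 66, 68.2, 68.9 and 71.1 CPM with DOX at 3 days. At 6 days it measured 81.9, 75.8, 78.1 and 77.6 CPM with DMSO and 68.5, 68.6, 67.1 and 65.5 CPM with DOX. The DOX libraries lay below the DMSO libraries at both times, but the log2 fold changes, -0.20 (95% interval -0.31 to -0.09) and -0.22 (-0.32 to -0.11), were not called (adjusted p = 1 and 0.978). *Cdk6* had log2 fold changes of 0.01 at both times, with intervals of -0.14 to 0.16 and -0.15 to 0.16, and its groups overlapped. Its lowest library, replicate 1 of DMSO at 6 days, had 65.6 CPM, and without it the value at 6 days was -0.08.

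*Cdk4* was the more abundant of the D-type cyclin partner kinases by RNA. Its DOX effect was called different between times, but not when any of 4 libraries was left out. At 3 days it measured 397, 396, 384 and 371 CPM with DMSO and 412, 481, 461 and 471 CPM with DOX. At 6 days it measured 456, 427, 400 and 381 CPM with DMSO and 412, 389, 397 and 392 CPM with DOX. The groups were apart at 3 days and overlapped at 6 days, where replicate 1 was the highest of DMSO. The log2 fold change was 0.24 at 3 days (SE 0.0626, adjusted p = 0.846) and -0.07 at 6 days (SE 0.0626, adjusted p = 1), or -0.02 without that replicate. Without replicate 1 of DOX at 3 days, the lowest of its group, the value at 3 days was 0.28. In TPM the groups overlapped at 3 days too, with 439 to 560 TPM for DMSO and 522 to 559 TPM for DOX. The median of all genes on log2(TPM + 1) shifted by -0.149 at that time. With the implied lengths as an offset in edgeR, *Cdk4* had a log2 fold change of 0.25 at 3 days. *Cdk4* (chromosome 10, 127063534 to 127067920, plus strand) shares 641 of its 3249 exonic bases with the opposite-strand gene *Tspan31*.

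RefSeq promoter sequences on GRCm38.p6 were held for 7 of the 10 genes, and not for *Ccnd1*, *Ccnd2* and *Ccne2*. The 250 bases before each start were searched on both strands for the E2F octamers TTTCCCGC, TTTGGCGC, TTTCGCGC and TTTGCCGC and for CACGTG, the E-box that MYC and USF factors can bind. These motifs do not overlap each other in the sequences below, and they were picked after the changes were known. E2F octamers were in 1.86% of 32851 promoters, and among the 7 genes in *Cdk2* and at the upstream start of *Cdkn2a*, from which p19ARF is made. CACGTG was in 6.02% of promoters, once in *Cdk6* and 4 times in *Cdk4*, where 0.0213% of promoters hold 4 or more. A match describes letters and is not a measured binding site. The sequences with an E2F octamer, and the *Cdk4* promoter for its run of E-boxes, are shown 5′ to 3′ on the strand of the gene, with the motifs in capitals. They lie at chr10:128705052-128705301 (minus strand), chr4:89294620-89294869 (minus) and chr10:127063285-127063534 (plus).
Cdk2: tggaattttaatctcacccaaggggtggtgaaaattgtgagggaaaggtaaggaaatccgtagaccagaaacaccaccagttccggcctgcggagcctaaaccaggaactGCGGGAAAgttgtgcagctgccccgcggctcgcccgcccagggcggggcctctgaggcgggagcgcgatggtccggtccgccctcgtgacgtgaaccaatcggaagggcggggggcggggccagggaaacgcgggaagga
Cdkn2a: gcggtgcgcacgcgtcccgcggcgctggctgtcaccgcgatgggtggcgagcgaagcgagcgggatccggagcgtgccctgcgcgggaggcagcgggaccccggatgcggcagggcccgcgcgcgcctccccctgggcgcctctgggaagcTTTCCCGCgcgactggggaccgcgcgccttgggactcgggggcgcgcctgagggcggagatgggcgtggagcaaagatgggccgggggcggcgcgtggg
Cdk4: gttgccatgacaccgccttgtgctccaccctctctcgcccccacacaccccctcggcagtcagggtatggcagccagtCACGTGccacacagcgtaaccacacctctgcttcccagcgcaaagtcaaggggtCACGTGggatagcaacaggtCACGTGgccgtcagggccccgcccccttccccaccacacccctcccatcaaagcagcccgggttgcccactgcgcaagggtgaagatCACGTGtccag

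Neither inhibitor was called at either time. *Cdkn1b* measured 76.5, 68.1, 69.1 and 68.6 CPM with DMSO and 80.6, 71.4, 72.6 and 67.5 CPM with DOX at 3 days, with overlap. At 6 days it measured 72.8, 70.7, 73.9 and 70.3 CPM with DMSO and 87.4, 82.7, 78.9 and 77.9 CPM with DOX. All 4 DOX libraries were then above DMSO, with a log2 fold change of 0.18 (95% interval 0.06 to 0.31, adjusted p = 1), against 0.05 (-0.07 to 0.17) at 3 days. The log2 ratio of mean TPM was -0.13 at 3 days and 0.08 at 6 days, with overlap at both times. The median of all genes on log2(TPM + 1) shifted by -0.149 and -0.055 at these times. With the implied lengths as an offset in edgeR, *Cdkn1b* had log2 fold changes of 0.04 and 0.15. *Cdkn1b* is on chromosome 6 (134920401 to 134925513, plus strand).

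*Cdkn2a* measured 104, 110, 108 and 110 CPM with DMSO and 113, 119, 125 and 136 CPM with DOX at 3 days. At 6 days it measured 139, 114, 105 and 97.2 CPM with DMSO and 107, 107, 113 and 110 CPM with DOX. The DOX libraries were above DMSO at 3 days and inside its range at 6 days, where replicate 1 of DMSO was the highest. The log2 fold change was 0.19 (95% interval 0.02 to 0.35, adjusted p = 1) at 3 days and -0.06 (-0.22 to 0.11, adjusted p = 1) at 6 days, and at 6 days it was 0.05 without that library. The log2 ratio of mean TPM was -0.004 at 3 days, when the median of all genes on log2(TPM + 1) shifted by -0.149. With the implied lengths as an offset in edgeR, the log2 fold change of *Cdkn2a* at 3 days was 0.18. The locus (chromosome 4, 89274471 to 89294653, minus strand) has 2 annotated transcripts of 852 and 895 bases. Its 2 RefSeq promoters have starts that lie 12427 bases apart. Counts per gene add p16INK4a and p19ARF transcripts together, so the level of each is not given here.

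Whether DOX acted differently at 6 than at 3 days was tested in the same fit, with edgeR's glmQLFTest and no threshold. It was called for 2 of the 10 genes, both lower at 6 than at 3 days, where 17% of all genes were called, 7.44% higher and 9.58% lower. For *Ccne2* the difference was -0.53 (SE 0.141, adjusted p = 0.0151), and it was called with any library left out, at adjusted p of 0.00258 to 0.0392. With the implied transcript lengths as an offset it was -0.39 (adjusted p = 0.145), on TPM by limma -0.26 (adjusted p = 0.314). For *Cdk4* the difference was -0.30 (SE 0.0885, adjusted p = 0.0232). It was no longer called without replicate 4 of DMSO at 3 days (adjusted p = 0.0537), replicate 2 or 4 of DOX at 3 days (0.0577 and 0.0501) or replicate 2 of DMSO at 6 days (0.0528), and held without replicate 1 of DMSO at 6 days (-0.26, adjusted p = 0.0334). With the length offset, on TPM and without a filter on low counts it was not called either (adjusted p = 0.112, 0.415 and 0.0936). *Cdkn2a* had a difference of -0.25 (adjusted p = 0.132). Among the libraries left out in turn it was called only without replicate 4 of DMSO at 6 days (-0.31, adjusted p = 0.0443). Without replicate 1 of DMSO at 6 days it was -0.14.

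Time in DMSO alone was compared last. Between 3 and 6 days, edgeR's glmTreat called 0 of the 10 genes and 0% of all tested genes, with 172 genes at an unadjusted p under 0.05, and DESeq2 called 0 genes, with 28 at an unadjusted p under 0.05. The largest value was that of *Ccnd2* (log2 1.01, 95% interval 0.07 to 1.95), which was 0.34 without replicate 2 of DMSO at 6 days. For the other 9 genes the log2 fold changes lay between -0.16 (*Cdk6*) and 0.17 (*Ccne2*), and that of *Cdk6* was -0.07 without replicate 1 of DMSO at 6 days.

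Genes that act on or after these complexes were counted in lists, to be read against all tested genes, of which 7.22% were called lower and 5.3% higher at 3 days and 11.6% lower and 10% higher at 6 days. The lists, too, were chosen with earlier results of these data known. The 3 pocket proteins, *Rb1*, *Rbl1* and *Rbl2*, which E2F factors bind, were not called at either time (log2 -0.10 to -0.05 at 6 days). Of 10 E2F and DP factors, 3 fell at both times: at 6 days *E2f8* (log2 -1.14), *E2f7* (-1.21) and *E2f2* (-1.38). *E2f7* and *E2f8* are E2F repressors, and *E2f2* is an activator. The activator *E2f1* was not called (-0.07, SE 0.066, adjusted p = 1 in edgeR). Of 3 genes for cyclin D turnover none was called, and of 4 for CDK activation none was at 6 days and *Ccnh*, the cyclin partner of CDK7, rose at 3 days (0.53).

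The other 5 CDK inhibitors split in direction, with 1 called higher and 3 lower at 6 days. Of all tested genes 10% were called higher and 11.6% lower at that time. At 6 days *Cdkn1c*, which encodes p57, rose (log2 0.75, SE 0.095, adjusted p = 5.79e-05 in edgeR). *Cdkn2c* (-0.86) and *Cdkn2d* (-0.93), INK4 inhibitors of CDK4 and CDK6, and *Cdkn1a* (-0.40), which encodes p21 and is a p53 target, fell. At 3 days *Cdkn1c* rose (0.60) and *Cdkn2c* fell (-0.71). Of 7 genes for turnover of p27 and cyclin E, none was called at 3 days and 4 fell at 6 days, where 11.6% of all genes did. Among them were *Cul3* (-0.63), a scaffold of ubiquitin ligases, *Skp2* (-0.48), which marks p27 for degradation, and *Cks1b* (-0.41), its cofactor.

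Of 16 genes of S phase entry, 2 fell at 3 days, where 7.22% of all genes did, and 7 at 6 days, where 11.6% did, those with the smallest adjusted p being *Rrm2* (log2 -1.61), a ribonucleotide reductase subunit, *Cdc6* (-1.03), which licenses origins, and *Ccna2* (-0.76), the cyclin that follows cyclin E on CDK2. The difference between times was called for 9 of the 16, all lower at 6 days, where 9.58% of all genes were called lower. None rose, and none of the 6 *Mcm* helicase genes in the list was called at 6 days. Of 8 mitosis genes, 2 fell at 3 days and all 8 at 6 days, with *Mki67* (-1.26), *Top2a* (-0.78) and *Plk1* (-0.64) having the smallest adjusted p, and the difference between times was called for all 8. Of 10 genes that respond to ERK, the kinase through which growth factors induce *Ccnd1*, 5 fell and 2 rose at 3 days. At 6 days 5 fell, of which *Jun* (-1.26), *Fosl1* (-0.92) and *Dusp6* (-0.78) had the smallest adjusted p, and *Etv5* rose (1.13). Of all tested genes 7.22% were called lower and 5.3% higher at 3 days, and 11.6% lower and 10% higher at 6 days. *Myc* rose at 3 days (0.43) and had 0.30 (adjusted p = 0.254 in edgeR) at 6 days. The medians of these lists at 6 days were -0.33 for S phase entry, -0.60 for mitosis and -0.49 for ERK, against -0.097 for the 10 G1 genes and -0.001 for all tested genes.

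**Figure D5:**
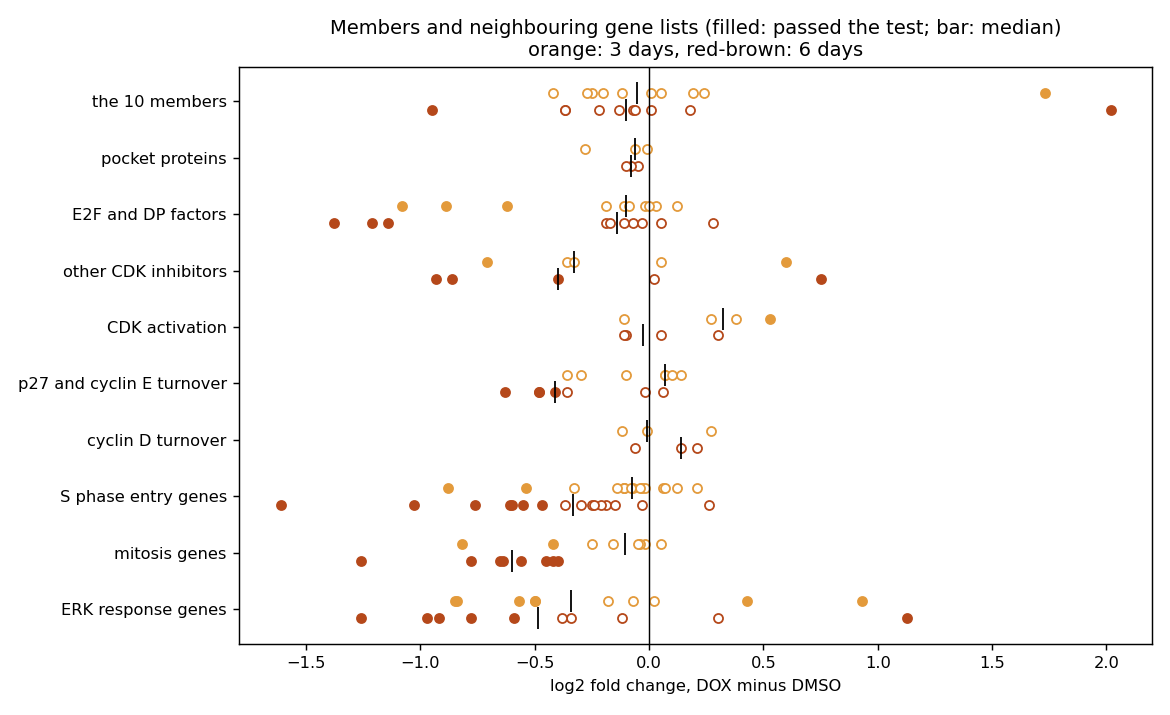
Log2 fold change, DOX minus DMSO, of every gene of the 10 members and of 9 neighbouring lists at 3 days (orange) and 6 days (red-brown). Filled points passed the test and black bars are medians. At 6 days all 8 mitosis genes are filled, at -1.26 to -0.40, while 8 of the 10 members are open points, at -0.37 to 0.18.

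For the 3 genes with the smallest adjusted p at 6 days, the tested genes whose log2 CPM followed them most closely over the 16 libraries were listed. These libraries share the treatment groups, so each value reflects the groups as well as the libraries. For *Ccne2* they were *Slbp*, which binds histone mRNA (Pearson's r = 0.983), *Rab11a* (0.979) and *Arpc5* (0.979). For *Ccne1* they were *Bora* (0.941), a cofactor of Aurora A, *Hnrnpa2b1* (0.933) and *Sprr2g* (0.927). For *Ccnd2* they were *Pecr* (0.954), *Cd74* (0.952) and *Vmac* (0.939), with the low counts of *Ccnd2* as a limit.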

How the data were processed

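The authors aligned read pairs to GRCm38 with STAR and quantified genes with salmon (0.14.10 in the submitters' processing notes). They deposited estimated counts per gene, not normalized, and TPM per gene. The transcript set and any use of strand are not given in the sources used here. Labels gave treatment, days and replicate. The 10 genes, the lists and the motifs were chosen with earlier results of these data known.

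Estimated counts were rounded and scaled by TMM. A gene was tested where 4 or more libraries, a number set here to the group size, reached 1 CPM before that scaling. A robust quasi-likelihood model with 1 mean per group was fitted to all 16 libraries in edgeR 4.0.16 (R 4.3.3), followed by glmTreat with a fold threshold of 1.2 for comparisons of groups and glmQLFTest for the difference between times. Adjusted p follows Benjamini and Hochberg across the 13234 genes. The SE is the log2 fold change over the square root of F, and the 95% intervals use the same fit. CPM used no pseudocount, and log2 CPM for correlations a prior count of 2. DESeq2 1.42.0, limma 3.58.1 on log2(TPM + 1), and the other alternatives are given in the closing section. On simulated counts the fit recovered 97% and 89% of genes changed by 2 and 1 on the log2 scale at 3 days (13076 genes). At 6 days it recovered 98% and 85.9% (13074 genes), with 0 false calls at both times. Recovery of smaller changes, such as the -0.37 of *Ccnd1* at 6 days, was not tested. Calls had to pass the fold threshold of 1.2, which by itself makes false calls of unchanged genes rare.

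Positions and overlaps are from GENCODE M21 (GRCm38) and promoters from RefSeq (GRCm38.p6). All 10 genes were named. Of a list, the called genes at 6 days were named, at most 3 in each direction by adjusted p. *Rb1*, *Rbl1*, *Rbl2*, *E2f1*, *Ccnh*, *Myc* and the markers were named after their values were seen. Of each of the 3 genes with the smallest adjusted p at 6 days, the 3 closest genes by Pearson's r were named.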

Additional observations from a re-analysis of the deposited data

Results flagged for a closer look

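Within groups of 4 libraries, 80 sets of values (CPM and TPM of 10 genes in 4 groups) were examined for a library far from the others (by the ratio of its gap to the range), and 3 stood out, where chance gives about 1 in 20. Replicate 4 of DMSO at 6 days had 82.7 CPM of *Ccnd3*, against 91.9 to 92.6 CPM in the others. Replicate 1 of DMSO at 3 days had 76.5 CPM of *Cdkn1b*, against 68.1 to 69.1 CPM. Replicate 1 of DOX at 3 days had 34.6 TPM of *Cdkn1b*, against 25.4 to 25.5 TPM.

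The DOX effect differed between 6 and 3 days by a test of the difference for *Ccne2* (-0.53, adjusted p = 0.0151 in edgeR) and for *Cdk4* (-0.30, adjusted p = 0.0232 in edgeR). With the implied length offset and on TPM by limma, neither was called (*Ccne2* adjusted p = 0.145 and 0.314, *Cdk4* 0.112 and 0.415). *Cdk4* was also not called without a filter on low counts (adjusted p = 0.0936 in edgeR) or on leaving out any of 4 libraries (adjusted p = 0.0501 to 0.0577).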

How the results depend on the processing

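With RLE normalization, and with only the libraries of a comparison in the fit, no call on the 10 genes changed. Without the fold threshold, genes called were 5982 at 3 days, 6702 at 6 days and 62 for time in DMSO, and members 6, 7 and 0. With a threshold on the difference they were 183 genes and 0 members. DESeq2 called 1019 genes at 3 days. limma on log2(TPM + 1) called 701 genes at 3 days, 1307 at 6 days and 659 for the difference, and 0, 1 and 0 members. On that scale 12.1% and 28.8% of calls were higher, against 42.3% and 46.4%, and the median of all genes shifted by -0.149 at 3 days, -0.055 at 6 days and 0.104 for the difference. The log2 ratios of mean TPM at 3 days were -0.45 for *Ccnd1*, -0.47 for *Ccne1* and -0.43 for *Cdk2*, lower than by counts. They were also lower than by counts for *Cdk4* (0.07), *Cdkn1b* (-0.13) and *Cdkn2a* (-0.004). With 1 CPM required in all 16 libraries *Ccnd2* left the test, and 0 and 1 members were called. Without a filter 6 genes were called for time in DMSO and 1 member for the difference. With the implied length offset 1273 genes and 0 members were called for the difference. The causes were not tested.

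Where a sign turned, the change was not called under either setting. By limma these were *Cdkn1b* (-0.14) and *Cdkn2a* (-0.002) at 3 days, *Cdk6* at 6 days (-0.08), *Ccnd3* (0.02), *Cdk2* (0.04) and *Cdk6* (0.13) for time in DMSO, and *Ccnd1* (0.01), *Ccnd3* (0.10) and *Cdk2* (0.10) for the difference. With the strict filter *Cdk6* had -0.00025 at 3 days and -0.01 at 6 days. Without a filter the differences of *Ccnd3*, *Cdk2* and *Cdk6* were 0.04, 0.02 and 0.04. With the length offset *Cdk6* had -0.01 at 6 days and 0.08 in DMSO, *Ccne2* -0.04 in DMSO, and *Ccnd2* a difference of -0.81.

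Leaving out each library in turn gave 1366 to 2295 genes and 1 to 2 members at 3 days, 2545 to 3064 genes and 2 to 3 members at 6 days, and 0 for time in DMSO. The difference gave 1369 genes (without replicate 4 of DMSO at 3 days) to 3787 genes (without replicate 1 of DOX at 3 days) and 1 to 3 members; it was also more than 1.5 times lower without replicate 2 of DOX at 3 days (1480) and replicate 2 of DMSO at 6 days (1467). Ranges that crossed 0 were those of *Cdk6* (-0.01 to 0.04) and *Cdkn1b* (-0.00020 to 0.09) at 3 days, *Cdk6* (-0.08 to 0.07) and *Cdkn2a* (-0.13 to 0.05) at 6 days, *Cdk2* (-0.04 to 0.02) and *Cdkn2a* (-0.04 to 0.14) in DMSO, and the differences of *Ccnd2* (-0.19 to 0.95), *Ccnd3* (-0.04 to 0.02), *Cdk2* (-0.05 to 0.01) and *Cdk6* (-0.09 to 0.06).

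The same replicate numbers recur in each group. Deviations of equally numbered libraries from their group means correlated at -0.0953, -0.122 and -0.113 on average in the 3 pairs of groups, and 0 libraries correlated best with their own number, so the numbers were not taken to pair the samples. With the number as a replicate block, 1570, 2767, 0 and 1768 genes and 1, 2, 0 and 2 members were called at 3 days, at 6 days, in DMSO and for the difference, and *Cdk6* had a difference of 0.001. Depth limited *Ccnd2* most, with 3 to 68 counts per library against at least 313 for every other member.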
